A study of Mus musculus with 10 samples.

Results

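The 10 genes described here encode integrins and the adaptor proteins that tie them to the contractile apparatus of heart muscle. They were the integrin beta subunit genes Itgb1 and Itgb5, the alpha subunit genes Itga5, Itga6, Itga7 and Itgav, and the adaptor genes Ilk, Vcl, Tln1 and Tln2. They were found by their gene names among the 55858 genes of the deposited table, and all 10 passed the filter on low values. Hearts of 10 mice were compared at postnatal day 10. All of them had the genotype labelled MCM; Chmp4bF/F. The 5 cKO mice received subcutaneous tamoxifen (0.1 mg/g) for 2 days starting at postnatal day 0, and the 5 control mice received corn oil. MCM is not spelled out in the labels, and the promoter that drives it is not given in the sources used here. Since the controls were not given tamoxifen, loss of Chmp4b and exposure to tamoxifen with an active MCM cannot be told apart. The series concerns the ESCRT machinery, which cuts membranes, in the formation of T-tubules, the folds of the surface membrane of heart muscle cells.

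Integrins are receptors made of an alpha and a beta chain that span the cell membrane, bind matrix proteins outside the cell and bind adaptors inside it. In heart muscle they sit at costameres, rib-like sites that join the Z-discs of the outer myofibrils to the surface membrane and to the basement membrane. Talins bind the tails of beta chains and link them to actin. Vinculin strengthens the talin to actin link, and integrin-linked kinase holds a complex with PINCH and parvin proteins at the same tails.

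RNA was measured as TPM (transcripts per 1000000), in which read counts are divided by gene length and each library is closed to the same total. The depth behind a value is unknown. Between 50.0% and 59.4% of TPM in control libraries came from mitochondrially encoded transcripts, against 35.5% to 41.5% in cKO libraries, and the median of the 13282 tested genes lay 0.63 above 0 (log2) in cKO as deposited. A second set of values, in which each library was divided by its size factor (median of ratios), is called scaled TPM below, and a difference between scaled values is a difference relative to the median gene. Chmp4b, the targeted gene, had a scaled TPM of 29.5 ± 1.38 in cKO and 60.8 ± 6.51 in controls (SD, n = 5), without overlap. As deposited it was 38.2 ± 1.42 and 47.4 ± 8.61 TPM (SD, n = 5), with overlap at control replicate 4. The 12 heart muscle markers together held 36780 to 40878 TPM in cKO and 37080 to 46106 TPM in control libraries. Xist was above 1 TPM in 3 cKO libraries (replicates 1, 5 and 7) and in no other library, and Ddx3y was above 1 TPM in the remaining libraries (2 cKO and 5 control), so the sexes were unevenly spread over the groups. In such bulk samples, fewer cells of a type and less RNA per cell cannot be told apart.

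Relative to the median gene, the adhesion genes moved in different directions in cKO hearts. Itgb5, Itgav, Itga5, Tln1 and Ilk rose, Tln2, Vcl and Itga6 fell, and Itgb1 and Itga7 did not pass the test. The largest difference was in Itgb5, at 1.84 times the control level. Limma called 5 of 10 members higher, where 20.8% of all tested genes were called higher, and 3 of 10 lower, where 20.8% of all tested genes were called lower (41.6% in either direction). Groups did not overlap in 5 members, 4 of them higher (15.8% of all tested genes) and 1 lower (15.5%, and 31.3% in either direction). As deposited, all 10 members were called higher, where 76.5% of all tested genes were called higher, 3.46% lower and 80.0% in either direction. On that scale 8 of 10 members did not overlap between groups and were higher (62.5% of all tested genes, with 1.92% lower and 64.4% in either direction). Itga6, Vcl and Tln2 thus rose as deposited and fell relative to the median gene. Their deposited differences of 0.38, 0.38 and 0.32 (log2) were smaller than the shift of the median gene.

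**Figure D1:**
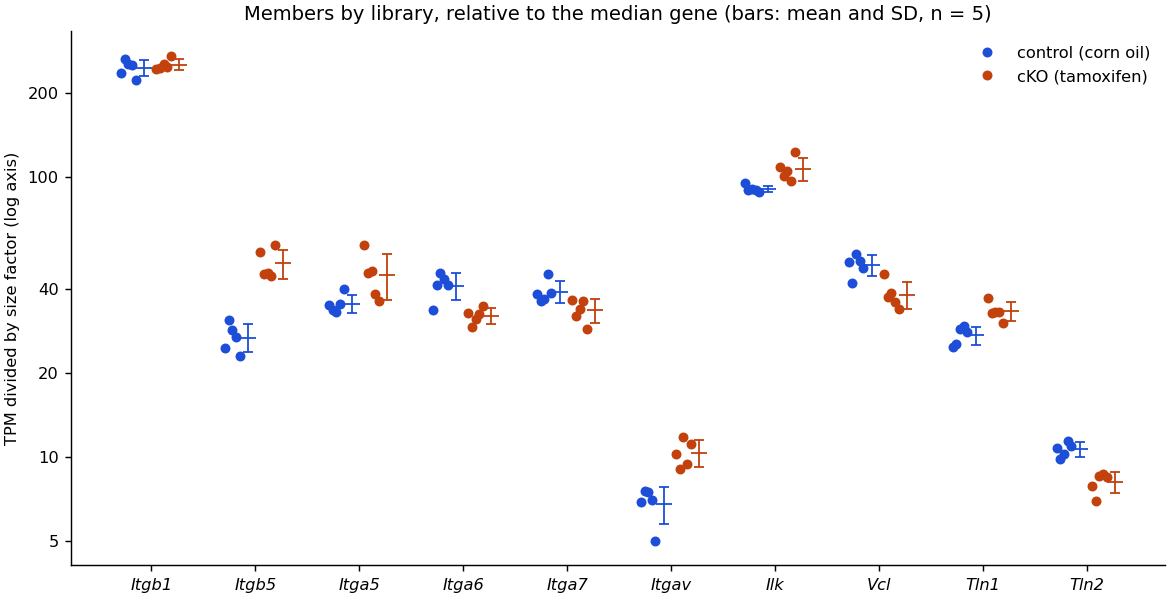
Scaled TPM (log axis) of the 10 members in the 5 control and 5 cKO libraries; points are libraries, and bars give the mean and SD. The groups are apart in Itgb5, Itgav, Ilk, Tln1 and Tln2 and overlap in the other 5 members.

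Limma called 1 of 10 members higher and 3 lower relative to the median gene when the level of Ddx3y was a covariate, where 12.4% and 13.4% of 13282 genes were. The counts were again 1 and 3 when the 3 cKO libraries with Xist were left out, where 11.4% and 14.8% of 12172 genes were called. Itgb5 was the member still called higher in both fits, and Itga6, Vcl and Tln2 the members still called lower. As deposited, 7 of 10 members were called higher in each of these fits, near the share of all tested genes (70.8% with the covariate and 68.6% without those libraries), and Itga6, Vcl and Tln2 were not called. When TPM was closed again without mitochondrially encoded genes, the median tested gene stood at 0.28 (log2), and 6 members were called higher and 0 lower (limma). On that scale 6064 of 13264 tested genes were higher (45.7%) and 1373 lower (10.4%), against 2763 and 2766 relative to the median gene.

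Itgb1 (ENSMUSG00000025809.16, chromosome 8 from 128685654 to 128733200 on the plus strand of GRCm38) encodes the beta chain that pairs with most alpha chains of heart muscle. It was the most abundant member in both groups. Its scaled TPM was 244, 246, 254, 249 and 272 in cKO replicates 1, 3, 5, 6 and 7, and 236, 265, 255, 251 and 223 in control replicates 4, 6, 8, 9 and 13. The ranges overlapped in part: 2 controls lay below all cKO libraries, and cKO replicate 7 lay above all controls. The difference was 0.04 ± 0.06 (log2, SE), with a 95% interval from -0.10 to 0.18 (limma adjusted p = 0.636). As deposited, Itgb1 rose from 192 ± 29.2 to 327 ± 18.3 TPM (SD, n = 5), by 0.78 (log2, limma adjusted p = 2.55e-05), beside the shift of 0.63 in the median gene.

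Itgb5 (ENSMUSG00000022817.16, chromosome 16 from 33829665 to 33949338, plus strand) encodes a beta chain that pairs with the Itgav chain to form a receptor for vitronectin. Scaled TPM of Itgb5 was 54.0, 45.3, 45.6, 44.5 and 57.1 in cKO replicates 1, 3, 5, 6 and 7, and 24.5, 30.9, 28.4, 26.9 and 23.1 in control replicates 4, 6, 8, 9 and 13. Each cKO library lay above each control library. The rise was 0.86 ± 0.10 (log2, SE, limma adjusted p = 2.97e-05), and 1.58 as deposited (limma adjusted p = 8.69e-07). The call held with the Ddx3y covariate (0.73, limma adjusted p = 0.00148) and without the 3 libraries with Xist (0.73, limma adjusted p = 0.00189).

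Itgav (ENSMUSG00000027087.12, chromosome 2 from 83724397 to 83806916, plus strand) encodes the alpha chain of receptors for vitronectin and other matrix proteins with an RGD site, some of which also activate latent TGF-beta. Scaled TPM was 10.2, 9.06, 11.8, 9.49 and 11.2 in the cKO replicates, in the same order, and 6.89, 7.57, 7.53, 7.02 and 5.03 in the control replicates. The groups did not overlap, and control replicate 13 was low. Itgav rose by 0.54 ± 0.11 (log2, SE, limma adjusted p = 0.00182), and by 1.20 as deposited (limma adjusted p = 8.47e-06). The rise was 0.41 with the Ddx3y covariate (limma adjusted p = 0.0522) and 0.40 without the 3 libraries with Xist (limma adjusted p = 0.0700).

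Among the remaining alpha chains, Itga5 rose, Itga6 fell and Itga7 was not called. Itga5 (ENSMUSG00000000555.9, chromosome 15 from 103344286 to 103366763, minus strand) encodes the alpha chain of the main fibronectin receptor. Its scaled TPM was 57.3, 45.7, 46.1, 38.2 and 36.2 in cKO and 35.1, 33.7, 33.0, 35.2 and 39.9 in control hearts. Replicate 1 was high in cKO, and replicates 6 and 7 lay below the highest control. The spread was wider in cKO, with a coefficient of variation of 18.6% against 7.66%. Itga5 rose by 0.31 ± 0.11 (log2, SE, limma adjusted p = 0.0435), and by 1.04 as deposited (limma adjusted p = 1.95e-05). The call relative to the median gene was lost without cKO replicate 1 (0.22), 3 (0.30) or 5 (0.30) or control replicate 4 (0.31), 6 (0.30), 8 (0.29) or 9 (0.31), with limma adjusted p from 0.0733 to 0.0901. The Itga5 call was lost as well with the Ddx3y covariate (0.23, limma adjusted p = 0.30) and without the 3 libraries with Xist (0.24, limma adjusted p = 0.123).

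Itga6 (ENSMUSG00000027111.17, chromosome 2 from 71745616 to 71858416, plus strand) encodes an alpha chain of laminin receptors that is also well known on endothelial cells. Scaled TPM was 32.7, 29.2, 31.2, 32.5 and 34.7 in cKO and 33.5, 41.2, 45.6, 43.4 and 41.3 in control hearts. The 4 controls other than replicate 4 lay above all cKO libraries. Itga6 fell by 0.34 on the log2 scale (0.08 SE, limma adjusted p = 0.00639) relative to the median gene and rose by 0.38 as deposited (limma adjusted p = 0.0102). Itga7 (ENSMUSG00000025348.11, chromosome 10 from 128933818 to 128958282, plus strand) encodes the laminin-binding alpha chain typical of skeletal and heart muscle. Itga7 had a scaled TPM of 36.6, 32.1, 33.8, 36.1 and 28.8 in cKO and 38.3, 36.1, 36.7, 45.0 and 38.6 in control hearts. The groups overlapped between 36.1 and 36.6. The difference was -0.21 ± 0.08 (log2, SE), with an unadjusted 95% interval from -0.39 to -0.03 (limma adjusted p = 0.0564). It passed the test without cKO replicate 1 (-0.24, limma adjusted p = 0.0444) or control replicate 6 (-0.24, limma adjusted p = 0.0489). As deposited Itga7 rose by 0.51 (limma adjusted p = 0.000671).

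The talin genes moved in opposite directions relative to the median gene. Tln1 (ENSMUSG00000028465.17, chromosome 4 from 43531519 to 43562691, minus strand) encodes the talin found in most cell types. Its scaled TPM was 37.1, 32.8, 33.0, 32.9 and 30.1 in cKO and 24.8, 25.4, 28.6, 29.4 and 27.9 in control hearts, without overlap. Tln2 (ENSMUSG00000052698.16, chromosome 9 from 67217087 to 67559703, minus strand) encodes the talin enriched in mature striated muscle. Tln2 had a scaled TPM of 7.90, 6.98, 8.59, 8.73 and 8.48 in cKO and 10.8, 9.85, 10.2, 11.4 and 11.0 in control hearts, again without overlap. Tln1 rose by 0.28 ± 0.07 (log2, SE, limma adjusted p = 0.00870). Tln2 fell by 0.35 on the log2 scale (0.07 SE, limma adjusted p = 0.00252). As deposited both rose, Tln1 by 0.99 and Tln2 by 0.32 (limma adjusted p = 4.61e-06 and 0.00559). Tln1 was no longer called with the Ddx3y covariate (0.27, limma adjusted p = 0.0763) or without the 3 libraries with Xist (0.27, limma adjusted p = 0.0577).

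Vcl (ENSMUSG00000021823.11, chromosome 14 from 20929398 to 21033676, plus strand) encodes vinculin and, by splicing, the muscle form metavinculin, which a value over the whole gene does not separate. Vcl had a scaled TPM of 45.1, 37.2, 38.5, 35.9 and 33.8 in cKO and 49.8, 41.8, 53.3, 50.1 and 47.5 in control hearts. Only cKO replicate 1 reached into the control range, above control replicate 6. Vcl fell by 0.34 on the log2 scale (0.09 SE, limma adjusted p = 0.00786) and rose by 0.38 as deposited (limma adjusted p = 0.00969). In the annotation 25.5% of its exon bases also lie in exons of Ap3m1 on the other strand, whose mean was 18.3 TPM in control and 27.8 TPM in cKO hearts.

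Ilk (ENSMUSG00000030890.17, chromosome 7 from 105736592 to 105742925, plus strand) encodes integrin-linked kinase, which works as a scaffold. Its scaled TPM was 109, 101, 105, 96.7 and 123 in cKO and 95.1, 90.1, 91.1, 90.2 and 88.9 in control hearts. The groups did not overlap, and the controls were close together, with a coefficient of variation of 2.61%. Ilk rose by 0.23 ± 0.07 (log2, SE, limma adjusted p = 0.0182), and by 0.96 as deposited (limma adjusted p = 2.74e-06). The rise was 0.11 with the Ddx3y covariate (limma adjusted p = 0.315) and 0.12 without the 3 libraries with Xist (limma adjusted p = 0.222). Of the exon bases of Ilk, 76.7% also lie in exons of Taf10 on the other strand, which stood at 14.7 TPM in control and 33.1 TPM in cKO hearts. Nothing states whether counting used strand, so reads of these genes cannot be told apart.

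**Figure D2:**
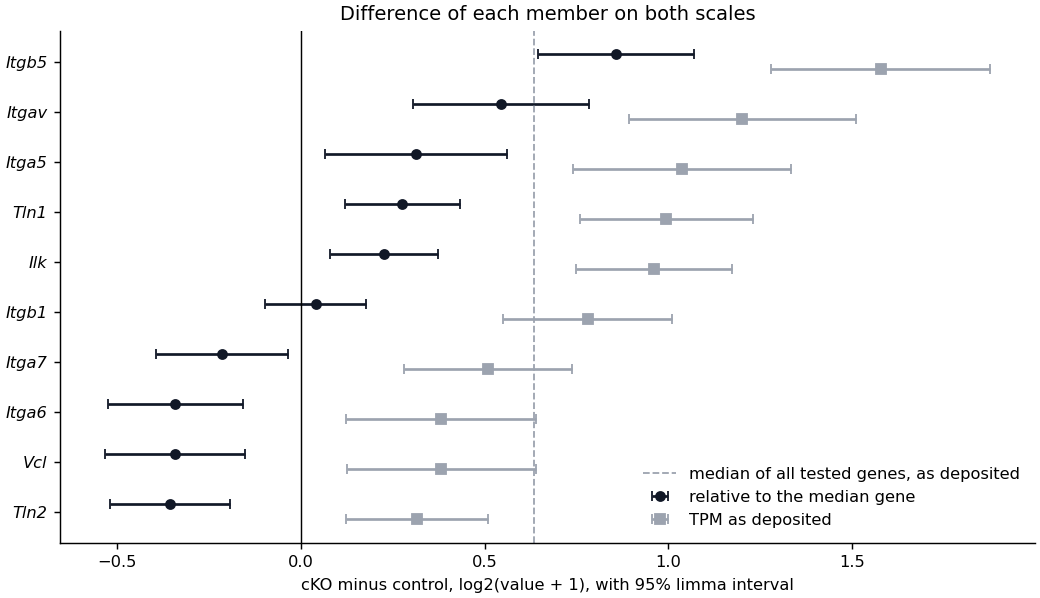
Difference between cKO and control of each member on the log2(value + 1) scale, with the 95% limma interval, relative to the median gene (circles) and as deposited (squares). Each member lies above 0 as deposited, and the dashed line marks the median of all tested genes on that scale, 0.63.

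Ratios between members of the same library do not move with the scaling, and they separated the groups in 4 of 6 cases. No share over other ratios is given, while 31.3% of all tested genes did not overlap between groups in scaled TPM. Itgb1 differed by 0.04 (log2) relative to the median gene, so ratios to Itgb1 stand close to the scaled differences and are not separate evidence. The level of Itgb5 per Itgb1 was 0.195 ± 0.0195 in cKO and 0.108 ± 0.00541 in controls (SD, n = 5). This ratio rose 1.79-fold without overlap (two-sided exact permutation p = 0.00794, 0.0119 adjusted over the 6 ratios). Itgav per Itgb1 was 0.0409 ± 0.00374 in cKO and 0.0276 ± 0.00287 in controls (SD, n = 5), a rise of 0.57 (log2). The ratio of Tln1 to Tln2 ran from 3.55 to 4.70 in cKO and from 2.30 to 2.79 in control libraries. It rose by 0.68 (log2). Itga6 per Itgb1 fell from 0.167 ± 0.0178 to 0.127 ± 0.00612 (SD, n = 5), by 0.39 on the log2 scale. These 3 ratios did not overlap between groups and had the same exact permutation p as Itgb5 per Itgb1, the smallest that 5 against 5 libraries allow. With medians in place of means all 4 ratios kept their direction and lost the call (adjusted exact permutation p = 0.0571). Several splits tie in their medians, so the smallest p is larger than with means. After adjustment that p passes only if all 6 ratios reach it, so the lost call is no sign of weaker differences.

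The other pair of ratios overlapped between groups. Itga7 per Itgb1 fell short of the threshold, at 0.159 ± 0.0185 in control and 0.133 ± 0.0173 in cKO hearts (SD, n = 5, exact permutation p = 0.0556, adjusted 0.0667). Itga5 per Itgb1 was 0.145 ± 0.0210 and 0.178 ± 0.0387 (SD, n = 5, exact permutation p = 0.119, adjusted 0.119). Without cKO replicate 7, the lowest of its group, the difference in Itga5 per Itgb1 was 0.38 (log2) and passed the test (adjusted exact permutation p = 0.0381). Without the 3 libraries with Xist, the log2 differences in Itgb5, Itgav and Itga6 per Itgb1 were 0.74, 0.45 and -0.42, and that of Tln1 to Tln2 was 0.72. With 2 against 5 libraries the exact test cannot reach 0.05.

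**Figure D3:**
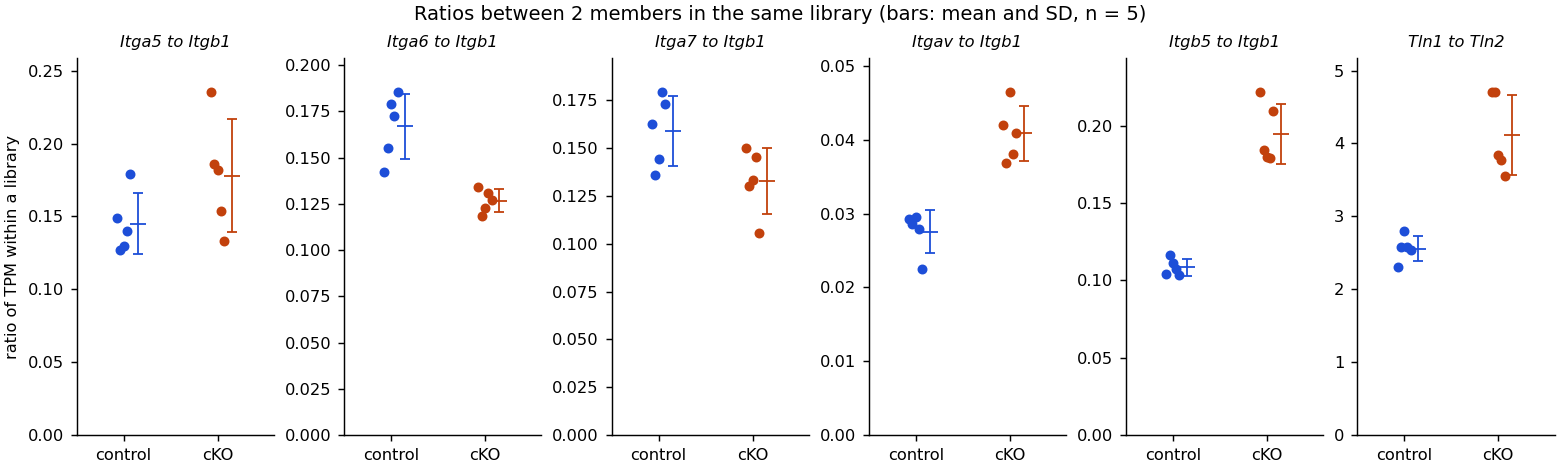
Ratio of TPM of 2 members within each library, in 5 control and 5 cKO libraries; points are libraries, bars give the mean and SD, and each axis starts at 0. The groups are apart for Itga6, Itgav and Itgb5 to Itgb1 and for Tln1 to Tln2, and overlap for Itga5 and Itga7 to Itgb1.

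The order of the levels by mean TPM, which is per gene length, differed between groups. The gene lengths used are not given, and levels of Ilk and Vcl may hold reads of genes that share their exon bases. In control hearts the order ran from Itgb1 at 192 TPM over Ilk (70.6), Vcl (37.6), Itga6 (32.0), Itga7 (30.2), Itga5 (27.3), Tln1 (21.1), Itgb5 (20.9) and Tln2 (8.25) to Itgav (5.33). Of these neighbours, Vcl and Itga6, Itga6 and Itga7, Itga7 and Itga5, and Tln1 and Itgb5 had overlapping ranges. In cKO hearts the order was Itgb1 (327 TPM), Ilk (139), Itgb5 (63.9), Itga5 (58.3), Vcl (49.5), Itga7 (43.4), Tln1 (43.1), Itga6 (41.5), Itgav (13.4) and Tln2 (10.5). Each pair of neighbours from Itgb5 to Itga6, and Itgav and Tln2, had overlapping ranges there. By mean TPM Itgb5 ranked 8 in control and 3 in cKO hearts, though it lay above the next gene, Itga5, in only 2 of 5 cKO libraries. Itgav lay below Tln2 in each of the 5 control libraries and above it in each of the 5 cKO libraries.

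As a share of all integrin RNA of its class, the mixture shifted while the sum of the members did not separate the groups. The 4 alpha members held 71.4% to 74.9% of the summed TPM of 18 alpha genes in cKO and 69.8% to 73.5% in control libraries. Itga5 made up 26.9% ± 3.13 in cKO and 20.9% ± 1.71 in control hearts, and Itgav 6.28% ± 0.800 and 4.02% ± 0.681 (SD, n = 5), both without overlap. The shares of Itga6 (19.5% ± 2.17 and 24.1% ± 2.34) and Itga7 (20.2% ± 1.44 and 22.9% ± 1.15; SD, n = 5) overlapped. Of 8 beta genes, Itgb1 held 81.3% ± 1.24 in cKO and 87.7% ± 0.409 in control hearts, and Itgb5 15.8% ± 1.35 and 9.52% ± 0.456 (SD, n = 5). Neither overlapped between groups. Shares within a class are closed to the same total, so that of Itgb1 falls where others rise, while Itgb1 itself was not called (0.04, log2). The shares of Itga1, Itga3, Itga4, Itga9, Itgal, Itgam, Itgax, Itgb2, Itgb3, Itgb4 and Itgb6 did not overlap either. These shares are given as values, without a test and without a share over other genes beside them.

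**Figure D4:**
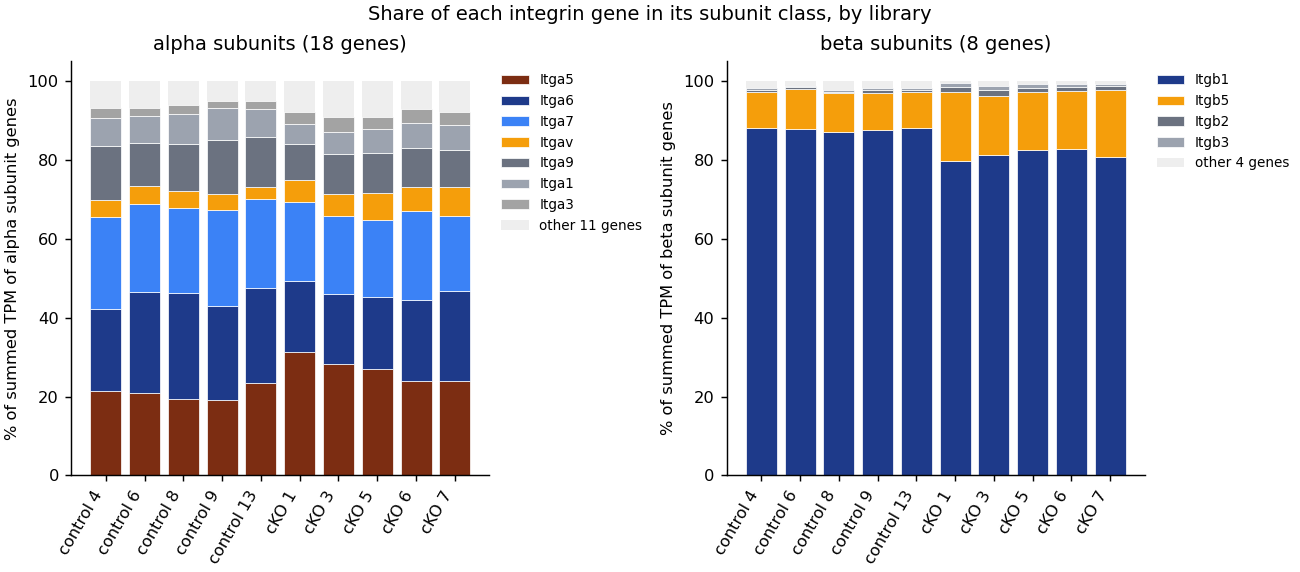
Share of each integrin gene in the summed TPM of 18 alpha subunit genes (left) and 8 beta subunit genes (right), in % by library. Itgb5 holds 14.8% to 17.6% of the beta class in cKO and 9.11% to 10.2% in control libraries.

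Promoter sequences are shown for Itgb5 and Itgav, which rose most among the members, for Vcl, which fell, and for Itgb1, which did not pass the test. RefSeq promoters (GRCm38.p6) were matched for 7 of 10 members. Each sequence is the 250 bases before the annotated start, 5′ to 3′ on the strand of the gene, here the plus strand in each case. Capitals mark matches, on either strand, to the CArG box of serum response factor, to TGANTCA (AP-1), to GGAATG (the core of TEAD sites) or to GGGCGG (the GC box of Sp factors). Matches can overlap each other.
Itgb5, chr16:33829415-33829664: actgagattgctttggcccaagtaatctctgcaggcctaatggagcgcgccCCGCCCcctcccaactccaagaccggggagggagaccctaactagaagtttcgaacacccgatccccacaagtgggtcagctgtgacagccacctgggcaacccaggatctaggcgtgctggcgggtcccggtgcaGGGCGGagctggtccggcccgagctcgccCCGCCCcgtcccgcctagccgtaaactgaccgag
Itgav, chr2:83724147-83724396: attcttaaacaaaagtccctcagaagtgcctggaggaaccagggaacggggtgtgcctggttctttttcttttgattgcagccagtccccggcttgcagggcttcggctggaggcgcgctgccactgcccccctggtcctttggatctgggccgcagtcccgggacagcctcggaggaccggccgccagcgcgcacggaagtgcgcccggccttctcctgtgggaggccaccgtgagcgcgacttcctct
Vcl, chr14:20929148-20929397: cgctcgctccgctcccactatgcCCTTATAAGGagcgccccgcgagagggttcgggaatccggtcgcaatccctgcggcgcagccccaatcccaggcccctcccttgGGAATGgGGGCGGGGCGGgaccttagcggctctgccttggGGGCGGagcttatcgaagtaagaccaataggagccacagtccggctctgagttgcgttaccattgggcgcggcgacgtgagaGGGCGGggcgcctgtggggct
Itgb1, chr8:128685404-128685653: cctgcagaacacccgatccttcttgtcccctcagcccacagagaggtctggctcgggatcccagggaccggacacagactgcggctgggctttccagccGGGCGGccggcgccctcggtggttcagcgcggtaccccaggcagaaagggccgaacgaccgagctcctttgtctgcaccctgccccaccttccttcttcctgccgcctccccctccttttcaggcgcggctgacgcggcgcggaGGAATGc
Vcl held 1 CArG box, which ended 217 bases before the start, 1 GGAATG and 4 GGGCGG, of which those ending 130 and 125 bases before the start overlap each other. Itgb5 held 3 GGGCGG, Itgb1 held 1 GGAATG and 1 GGGCGG, and the Itgav window held no match to these letters. Of 32851 RefSeq promoter windows of the same length, 1.47% held a CArG box, 6.75% TGANTCA, 12.6% GGAATG and 32.7% GGGCGG. A match describes the letters and shows no binding.

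Partners of the integrin tails and of Ilk moved in both directions relative to the median gene. Itgb1bp2, which encodes melusin, a muscle protein that binds the tail of the Itgb1 chain, fell from 139 ± 5.94 to 44.8 ± 8.67 scaled TPM (SD, n = 5). It fell by 1.63 (log2, limma adjusted p = 9.68e-07), and by 0.89 as deposited (limma adjusted p = 7.21e-06). The PINCH genes Lims1 and Lims2 fell by 0.59 and 0.83 (log2, limma adjusted p = 2.97e-05 and 6.37e-05) relative to the median gene. As deposited they stood at 0.14 and -0.11, without a call. Among the parvins, Parvb rose from 42.2 ± 3.96 to 76.5 ± 17.7 scaled TPM (SD, n = 5), by 0.82 (limma adjusted p = 0.000425). Parva had 23.8 ± 1.46 in cKO and 23.0 ± 1.49 scaled TPM in controls (SD, n = 5, limma adjusted p = 0.596). Parvg, the remaining parvin gene, rose by 0.66, the kindlin gene Fermt3 by 0.61 and Itgb1bp1, whose protein binds the Itgb1 tail, by 0.35 (limma adjusted p = 0.0307, 0.0164 and 0.00636); these 3 were added after their values were seen. With the Ddx3y covariate Parvg, Fermt3 and Itgb1bp1 stood at 0.78, 0.51 and 0.22 without a call (limma adjusted p = 0.0832, 0.157 and 0.148). The Parvg call was also lost in 7 of the 10 fits that left out 1 library (limma adjusted p up to 0.0699). Fermt2, which encodes kindlin-2, a partner of talin at beta tails, fell by 0.34 (limma adjusted p = 0.000710) and rose by 0.40 as deposited (limma adjusted p = 0.00276). Closing TPM without mitochondrially encoded genes left Fermt2 at -0.05 without a call (limma adjusted p = 0.651).

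Across the wider list of adhesion adaptors and kinases, 25 of 26 genes were tested, and Fermt1 was listed at 0 in all 10 libraries. On the scaled values 8 of them rose, 5 fell and 12 passed no threshold, with a median of 0.05 (log2) where the median of all tested genes was 0.01. Of all tested genes 20.8% were called higher and 20.8% lower on these values. As deposited 22 were higher, 1 lower and 2 not called, where 76.5% of all tested genes were called higher and 3.46% lower. Beside those above, Apbb1ip, which encodes RIAM, a protein that brings talin to integrins in blood cells, rose by 1.30 (limma adjusted p = 1.66e-06). Apbb1ip stayed in the test in 5 of the 10 fits without 1 library, so it met the filter with no library to spare. A gene that is high in 1 group can pass in this way through that group alone, so this p-value is no support for the rise. Of 22 tested actin linkers, 6 rose, 8 fell and 8 were not called, with a median of -0.07, while as deposited 17 were higher and 0 lower by limma (median 0.65). Pdlim7, which encodes the PDZ and LIM protein enigma, rose from 38.3 ± 4.36 to 114 ± 16.1 scaled TPM (SD, n = 5), by 1.54 (limma adjusted p = 7.81e-07). The Z-disc actinin gene Actn2 fell by 0.76 and Pdlim5 by 0.64 (limma adjusted p = 8.02e-06 and 1.26e-05). As deposited Actn2 stood at -0.02 and Pdlim5 at 0.10, and neither was called. Without the 3 libraries with Xist, 4 adaptors rose and 4 fell of 23 tested, and 2 actin linkers rose and 3 fell of 21 tested. Of all tested genes 11.4% were then called higher and 14.8% lower. Closing TPM without mitochondrially encoded genes gave 14 higher and 3 lower adaptors, and 8 higher and 3 lower actin linkers. On that scale 45.7% of all tested genes were called higher and 10.4% lower.

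Other integrin subunits passed the filter in 12 of 20 cases. In scaled TPM 5 of these rose, 3 fell and 4 passed no threshold, with a median of 0.25, and as deposited 10 were higher and 1 lower. The shares of all tested genes were 20.8% higher and 20.8% lower in scaled TPM, and 76.5% and 3.46% as deposited. Itgam and Itgb2, the chains of a receptor of myeloid cells, rose by 0.95 each (limma adjusted p = 7.71e-05 and 0.000730). Both were low, at 0.570% and 0.524% of the TPM of their class in control and 1.70% and 1.19% in cKO hearts. Neither passed a filter of 5 TPM, nor the main filter without the 3 libraries with Xist. Both met the main filter mainly through cKO libraries, so these p-values are no support for a rise. Itgb3, whose chain also pairs with that of Itgav, rose from 1.17 ± 0.154 to 2.48 ± 0.284 scaled TPM (SD, n = 5, limma adjusted p = 0.000135). Itgb3 failed the same filters and also met the main filter mainly through cKO libraries, so its p-value is no support for the rise either. Itga3, an alpha chain of laminin receptors, rose by 0.52 (limma adjusted p = 0.000401). Among matrix ligands 21 of 24 were tested, and 7 rose, 2 fell and 12 were not called, with a median of 0.17, and as deposited 20 were higher and 0 lower by limma. Fn1, the ligand of the Itga5 chain, rose by 0.46, Postn by 0.77 and Tnc by 1.24 (limma adjusted p = 0.000186, 2.22e-05 and 8.57e-06). Vtn, the ligand after which the receptor of Itgav and Itgb5 is named, fell by 0.93 (limma adjusted p = 8.26e-05) and stood at -0.26 as deposited (limma adjusted p = 0.0885). Without the 3 libraries with Xist, the filter left 6 other integrin subunits, of which 1 rose and 0 fell by limma, and 4 of 21 ligands rose and 1 fell. Closing TPM without mitochondrially encoded genes gave 7 subunits higher and 1 lower, and 15 ligands higher and 1 lower. Of all tested genes 11.4% were higher and 14.8% lower without the 3 libraries, and 45.7% and 10.4% without mitochondrially encoded genes.

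Markers of the cell types of the heart moved in the same libraries. Of all tested genes 20.8% were called higher and 20.8% lower relative to the median gene, and 76.5% and 3.46% as deposited. Relative to the median gene, 11 of 11 tested macrophage markers rose (median 1.85). The summed scaled TPM of the 12 listed ran from 355 to 511 in cKO and from 102 to 117 in control libraries. Fcgr1, 1 of the 11, met the filter through cKO libraries alone (mean 3.89 TPM, against 0.325 TPM in controls). Its call is thus no support for a rise of the list. Cd163, listed but not tested, overlapped between groups (mean scaled TPM 0.510 in cKO and 0.477 in controls). Of 10 fibroblast markers 7 rose and 3 fell (median 0.56), with sums from 1575 to 1916 and from 1157 to 1474. Of 11 endothelial markers 10 fell (median -0.55), with sums from 364 to 485 and from 622 to 682. Of 12 heart muscle markers 11 fell (median -0.92), with sums from 26660 to 34183 and from 51517 to 54870. Smooth muscle and pericyte markers rose in 2 and fell in 4 of 9 (median -0.28), with sums from 718 to 993 and from 715 to 808. As deposited the marker calls differed: 4 heart muscle markers were lower and 1 higher (median -0.18), and 0 endothelial markers were lower and 1 higher by limma (median 0.15). Summed endothelial TPM then overlapped, at 477 to 580 in cKO and 456 to 575 in control libraries. On that scale 11 macrophage markers, 8 fibroblast markers and 5 smooth muscle and pericyte markers were higher and 0 of these lower by limma. Without the 3 libraries with Xist, 9 of 9 tested macrophage markers rose, 11 of 12 heart muscle and 10 of 11 endothelial markers fell, and 6 of 10 fibroblast markers rose and 2 fell. The smooth muscle and pericyte counts were then 0 higher and 4 lower by limma. In that fit 11.4% of all tested genes were called higher and 14.8% lower. Among the 6 further marker lists, 2 of 4 tested atrial markers (6 listed) rose (median 1.20). The atrial marker Myl7 stood at 0.591 to 1.57 TPM in control and 3.50 to 51.6 TPM in cKO libraries. The value of 51.6 TPM was that of cKO replicate 1, and the next highest was 8.77 TPM in cKO replicate 5. Of 7 platelet markers 3 were tested and 2 rose. Of these, Ppbp met the filter through cKO libraries alone (1.41 to 2.69 TPM, against 0.431 to 0.654 TPM in controls). Gp1ba, not tested, was lower in cKO without overlap (mean scaled TPM 0.221 against 0.488). Of 7 tested skeletal muscle markers 2 fell, Acta1 and Ckm, and Ckm is also counted on the heart muscle list. Of 6 epicardial markers 2 were tested, of which 1 rose and 1 fell. Of 7 neutrophil markers 2 were tested, and neither was called. None of the 8 lymphocyte markers passed the filter (summed TPM 3.45 to 5.78 in cKO and 1.28 to 2.06 in control libraries). The part of these cell types in the changes of the members was not tested.

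**Figure D5:**
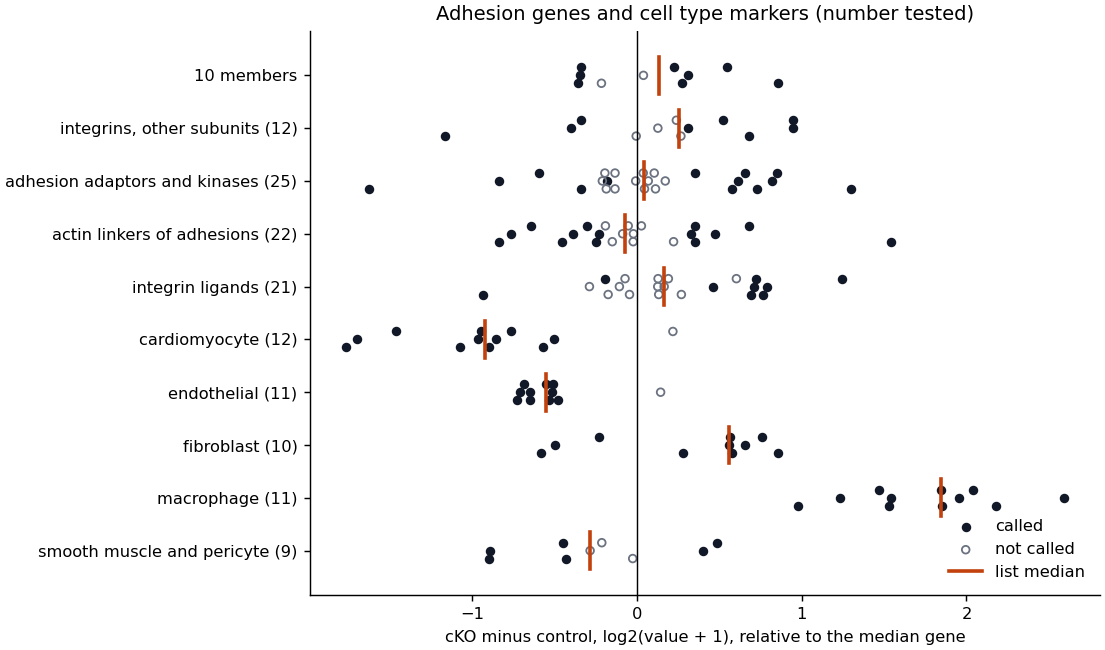
Difference between cKO and control, log2(value + 1) relative to the median gene, of each tested gene of the 10 members, of 4 adhesion lists and of 5 marker lists; filled points were called by limma, open points were not, and the bar is the list median. Macrophage markers lie above 0 (median 1.85), and heart muscle markers, other than 1 gene, below 0 (median -0.92).

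By root mean square difference of centred log2 profiles over the 10 libraries, the genes most like Itgb1 were Api5 (0.033), Ssr3 (0.039) and Skil (0.039), where the median over all tested genes was 0.24. Those most like Itga5 were Enpp6 (0.072), Plekho2 (0.084) and Zfp9 (0.088), against a median of 0.33. Genes like Itga7 included Epm2aip1 (0.061) and Zfp383 (0.070), against a median of 0.28.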

How the data were processed

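Samples titled heart, from 10 mice, were profiled by RNA sequencing of libraries made from 1 μg of RNA, per the labels' protocols. The titles do not name the chambers. The authors deposited 1 table of TPM with 55858 genes, each library closed to 1000000. Per the submitters' processing notes, which give no roles, the tools were STAR 2.7.1, HTSeq 0.11.2, DESeq2 1.22.2, Trimmomatic 0.32, Picard 1.96, FastQC 0.11.7 and bcl2fastq, and the build was mm10. Annotation release, gene lengths and strand setting: not given in the sources used here. TPM keeps no depth, so no counting interval was given. Groups and replicate numbers came from the titles. No pair of libraries held identical values.

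Genes with at least 1 TPM in at least 5 libraries were tested (13282). Size factors were medians of ratios over 16393 genes. Values were compared as log2(value + 1) with limma 3.58.1 in R 4.3.3 (moderated variance with trend, two-sided), Benjamini-Hochberg adjusted over all tested genes and called under 0.05. Fold changes of low genes are understated on this scale. For ratios, mean log2 values were compared by exact permutation (two-sided) and p was adjusted over 6 ratios. Scripts were tested on simulated data. Positions and exon overlaps are from GENCODE M21 (GRCm38), which matched 51460 of the IDs without version. Tables were handled with Python 3.11.15, pandas 2.3.3, numpy 2.4.6 and scipy 1.17.1.

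The members and gene lists were chosen with earlier results of these data known. Genes named were the 10 members, Chmp4b, 6 direct partners, up to 4 called genes of each of 4 adhesion lists with the smallest adjusted p, and the 3 genes most like each of Itgb1, Itga5 and Itga7. Some genes that this rule names are not reported here. Xist, Ddx3y, Parvg, Fermt3, Itgb1bp1, Fermt1 and genes sharing exon bases were added after their values were seen. Alternatives varied the pseudocount, filter, variance trend, scaling, a Ddx3y covariate and each library, and 1 added after seeing the data left out the 3 cKO libraries with Xist. The labels do not say which samples share a litter, so p-values measure only the spread between these samples.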

Additional observations from a re-analysis of the deposited data

Results flagged for a closer look

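Within groups of 5, some values stood far from the others of their group. Itga5 as deposited was 25.0 TPM in control replicate 4, where the group median was 27.8. Itga7 was 45.0 scaled TPM in control replicate 9, where the median was 38.3. Itgav was 5.03 scaled TPM in control replicate 13 (median 7.02), and the ratio of Itgav to Itgb1 was 0.0225 in the same library (median 0.0285). Looking at 56 groups of values gave these 4, and chance gives about 1 in 20.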

How the results depend on the processing

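Read depth is unknown, which limits what can be said of low values. Relative to the median gene, the Ddx3y covariate gave 1642 genes higher and 1774 lower, with 1 member higher. Closing TPM without mitochondrially encoded genes gave 6064 and 1373 (45.7% and 10.4% of tested genes), with 0 members lower by limma. There Itgb1 was called higher (0.34). Itga6, Vcl and Tln2 stood at -0.05, -0.05 and -0.09 without a call, and Itga7 at 0.07. Leaving out the 3 cKO libraries with Xist gave 1392 and 1803, with 1 member higher. As deposited, a filter of 5 TPM gave 293 genes lower, against 460, by fewer genes tested.

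Without 1 library, genes higher ranged from 2256 to 2696 and genes lower from 2458 to 2714, members higher from 4 to 5 and members lower from 3 to 4, relative to the median gene. As deposited the ranges were 9476 to 10155 and 372 to 492 genes, and all 10 members stayed higher. The calls of Itga6, Itgav, Itgb5, Ilk, Vcl, Tln1 and Tln2 relative to the median gene held without any 1 library. The Itga5 call was lost without a filter (limma adjusted p = 0.0933) and without the variance trend (limma adjusted p = 0.0528), and the cause was not tested.

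Taking medians of log2 ratios in place of means gave -0.44 for Itga6 to Itgb1, 0.52 for Itgav to Itgb1, 0.78 for Itgb5 to Itgb1 and 0.58 for Tln1 to Tln2, each at an adjusted exact permutation p = 0.0571. Splits tie in their medians, which keeps this p from passing unless every ratio tested reaches the smallest value. Without the 3 libraries with Xist the differences in mean log2 ratio were, in the same order, -0.42, 0.45, 0.74 and 0.72, where the exact test cannot pass. Without 1 library, Itga5 to Itgb1 ranged from 0.17 to 0.38. Chmp4b fell by 1.01 relative to the median gene without those 3 libraries (exact permutation p = 0.0952). As deposited Chmp4b stood at -0.34 there (limma adjusted p = 0.101; exact permutation p = 0.190), at -0.29 with no filter (limma adjusted p = 0.0658) and at -0.31 with the Ddx3y covariate (limma adjusted p = 0.0673). Without 1 library it ranged from -0.38 to -0.21 as deposited, where the limma call was lost without cKO replicate 3, 5, 6 or 7 or control replicate 6, 8 or 9, and from -1.07 to -0.96 relative to the median gene, where it held.

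No paired analysis was possible because the groups share 1 replicate number, 6.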
